A study of Mus musculus with 18 samples.

Results

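The miR-506 family is a set of small RNAs, microRNAs (miRNAs), encoded on the mouse X chromosome and grouped here by miRNA number. Its members were taken by name: every deposited row for a mouse miRNA named miR-201, miR-463, miR-465, miR-470, miR-471, miR-509, miR-547, miR-741, miR-742, miR-743, miR-871, miR-878, miR-880, miR-881 or miR-883, with any letter and either arm. Of these 15 numbers, 14 had rows, and miR-509 had none. The rule found 37 of the 1431 rows in each table. The rows of miR-465a-3p, miR-465b-3p and miR-465c-3p carried identical counts in every library and were counted once, as miR-465a-3p, which left 35 separate signals. The mice were C57BL/6 males, 8 to 12 weeks old, and the 6 groups were left eye, right eye, left lung, right lung, left testicle and right testicle, with 3 libraries each and no treatment or genetic change named. C57BL/6 is a common inbred laboratory strain. Each library was made from total RNA of the labelled organ, so it mixes all cell types of that organ.

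The labels name separate libraries and leave out whether a left and a right library share a mouse, or whether a library pooled mice. A p-value between organs rests on the spread between libraries of the same organ and side, estimated over all 18 libraries. This spread may therefore be smaller than that between mice. Eye libraries held 2451484 to 2680204 counts each, lung libraries 2538402 to 2790471 and testicle libraries 952608 to 1893132. Levels are given as CPM, counts per 1e6 counts, after scaling by the trimmed mean of M values (TMM). For a miRNA with 0 counts in a library, the limit taken is 3 counts, or 1.58 to 3.15 CPM for testicles and 1.08 to 1.22 CPM for eyes and lungs. Organ markers followed the labels: the summed retina and brain list (5 miRNAs) stood at 132133 to 189828 CPM in eyes, 2381 to 4818 CPM in lungs and 2903 to 5062 CPM in testicles, and the summed list for lung epithelium (5 miRNAs) at 4163 to 9058, 22808 to 32341 and 2094 to 3605 CPM. The 2 miRNAs of gonadal somatic cells, miR-202-5p and miR-202-3p, summed to 40794 to 52140 CPM in the testicle, 3.23 to 24.3 CPM in the eye and 8.88 to 94.1 CPM in the lung.

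A miRNA is cut from a hairpin precursor whose stem can yield a mature strand from its left side (5p) and from its right side (3p). Argonaute proteins carry a mature strand to messenger RNAs, where bases 2 to 8 of the miRNA, the seed, do most of the pairing. The miR-506 family lies on the X chromosome of placental mammals, evolves fast and is known in mice for its abundance in the testis, above all in male germ cells during spermatogenesis. Its number of hairpins differs between species, and the mouse copies have their own numbers, from which the rule was made.

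All 37 rows had a mature sequence of 21 to 23 bases in RefSeq (build GRCm38.p6). In the sequences printed here, 5′ to 3′, capitals mark the seed. The 12 signals with the highest mean level in the testicle come first, since the results turn on them.
miR-470-5p: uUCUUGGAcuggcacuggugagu
miR-465a-3p: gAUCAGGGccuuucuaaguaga
miR-471-3p: uGAAAGGUgccauacuauguau
miR-871-5p: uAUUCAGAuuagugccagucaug
miR-201-5p: uACUCAGUaaggcauuguucuu
miR-463-5p: uACCUAAUuuguuguccaucau
miR-871-3p: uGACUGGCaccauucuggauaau
miR-465c-5p: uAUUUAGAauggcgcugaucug
miR-741-3p: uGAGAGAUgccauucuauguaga
miR-465b-5p: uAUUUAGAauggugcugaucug
miR-547-3p: cUUGGUACaucuuugagugag
miR-881-3p: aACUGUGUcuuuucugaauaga

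The 37 names held 29 different seeds, so most members do not share one. Of the 5 seeds present more than once, AUUUAGA belongs to the 4 miR-465 5p copies (a to d), AUCAGGG to the single 3p sequence of miR-465a, b and c, AAAGACA to the 3p arms of miR-743a and miR-743b, AUUCAGA to miR-743a-5p and miR-871-5p, and AACUGCA to the 3p arms of miR-883a and miR-883b. Together these groups held 13 names. The near-identical members are printed to show how little separates them in a count table.
miR-465a-5p: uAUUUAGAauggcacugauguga
miR-465d-5p: uAUUUAGAaugguacugauguga
miR-743a-3p: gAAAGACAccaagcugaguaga
miR-743b-3p: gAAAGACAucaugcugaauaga
miR-743a-5p: uAUUCAGAuuggugccugucau
miR-883a-3p: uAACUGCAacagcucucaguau
miR-883b-3p: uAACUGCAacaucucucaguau
With positions counted from 1 at the 5′ end, miR-465c-5p differs from miR-465b-5p by U13C alone, miR-465a-5p by U13C, G14A and C20G, and miR-465d-5p by G14A and C20G, and the last 2 are also longer at the 3′ end (23 bases against 22). The pair miR-743a-3p and miR-743b-3p differs by C9U, A12U and G18A, and the pair miR-883a-3p and miR-883b-3p by G12U. The pair miR-743a-5p (22 bases) and miR-871-5p (23 bases) differs by G11A, U17A and the extra base at the 3′ end. How reads that match several of these sequences were assigned is not given in the sources used here, so the split between near-identical members is uncertain.

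RefSeq places 22 hairpins of these numbers on the minus strand of chromosome X (GRCm38.p6). A proximal cluster of 19 hairpins runs from 66776757 to 66839125, 62.4 kb, with Mir743 (66776757 to 66776818) at its low end and the miR-465 copies at its high end, where Mir465, the miR-465a hairpin, lies at 66839052 to 66839125. A distal cluster of 3, Mir201 (67988096 to 67988161), Mir547 (67988374 to 67988451) and Mir509, starts 1149 kb further on and spans 22.1 kb. Both clusters lie between the protein-coding genes Slitrk2 (66648951 to 66661402) and Fmr1 (68678536 to 68717963). None of the 22 hairpins overlaps another gene of the GENCODE M21 annotation (0 of 22), so all are intergenic there. Mir470 (66813951 to 66814025), source of the most abundant member, Mir871 (66810428 to 66810504) and Mir471 (66792595 to 66792661) lie inside the proximal cluster.

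In the testicle the family took between 11.0% and 15.4% of all miRNA counts. The values were 12.6%, 11.0% and 12.3% in left testicles 1 to 3, and 15.4%, 13.1% and 13.1% in right testicles 1 to 3 (mean 12.9% ± 1.43, SD, n = 6). In the eye it took 0.00123% to 0.00494% and in the lung 0.00404% to 0.0254%. These are 33 to 121 counts in an eye library, 105 to 695 in a lung library and 120093 to 248128 in a testicle library. Each testicle library had counts for 32 to 34 of the 35 signals, each eye library for 5 to 17 and each lung library for 11 to 21. The ranges of the testicle and of the other organs are far apart, with no overlap. In such whole-organ RNA, fewer cells of a type and less RNA per cell cannot be told apart.

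Mean testicle levels of the members spanned from 0.161 CPM (miR-881-5p) to 32145 CPM (miR-470-5p): 16 signals had a mean of at least 1000 CPM, 11 lay between 100 and 1000, 5 between 10 and 100, and 3 under 10. Mature lengths differ by at most a few bases, so no length scaling was applied between members. The first 3 members, miR-470-5p, miR-465a-3p and miR-471-3p, made up 50.5% of the family's mean level and the first 12 made up 93.4%. Among all miRNAs of the testicle, 3 members were in the top 20, 10 in the top 50 and 16 in the top 100.

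The most abundant member, miR-470-5p, stood at 26500.3, 18975 and 35518 CPM in left testicles 1 to 3 and 46311, 29599 and 35968 CPM in right testicles 1 to 3 (32145 ± 9365, SD, n = 6). The shared 3p sequence of miR-465a, b and c, at the far end of the proximal cluster, stood at 19028, 16239 and 28922 CPM in left testicles 1 to 3 and 36934, 24313 and 31629 CPM in right testicles 1 to 3 (26178 ± 7827). Next in level, miR-471-3p stood at 14539, 11224 and 19378 CPM in left testicles 1 to 3 and 26522, 18714 and 23333 CPM in right testicles 1 to 3 (18952 ± 5584). All 3 were lowest in left testicle 2 and highest in right testicle 1, and the 2 sides overlapped. A 5p arm, miR-871-5p, stood at 9691, 8233 and 10818 CPM in left testicles 1 to 3 and 16478, 11539.6 and 12462 CPM in right testicles 1 to 3 (11537 ± 2832). From the distal cluster, miR-201-5p stood at 9514, 9586 and 9122 CPM in left testicles 1 to 3 and 13294, 12424 and 12792 CPM in right testicles 1 to 3 (11122 ± 1905). Below it, miR-463-5p stood at 6319, 6134 and 8134 CPM in left testicles 1 to 3 and 12765, 9449 and 11278 CPM in right testicles 1 to 3 (9013 ± 2673). In these units, scaled over all 18 libraries, every right testicle was above every left testicle for miR-871-5p, miR-201-5p and miR-463-5p. It also held for miR-741-3p, miR-465b-5p and some less abundant members. TMM factors were 0.727 to 0.829 in right and 0.856 to 1.02 in left testicles, and a lower factor gives a higher CPM. The share of all miRNAs that separate in these units was not calculated. Scaled on the 6 testicle libraries alone, as in the test between sides, the separation held for miR-201-5p, miR-463-5p and miR-465b-5p. In that scaling miR-871-5p was higher in left testicle 3 (9629 CPM) than in right testicle 2 (9071 CPM), as was miR-741-3p (5732 and 5540 CPM). In that scaling the sides did not overlap, in either direction, for 15.9% of all miRNAs tested. The ranges of neighbours in this order of 6 overlapped. Within each of the 6 libraries, miR-470-5p was above miR-465a-3p and miR-465a-3p above miR-471-3p.

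Among the remaining members of the top 12, miR-741-3p stood at 5319, 5723 and 6439 CPM in left testicles 1 to 3 and 8294, 7048 and 7845 CPM in right testicles 1 to 3 (6778 ± 1172). One of the miR-465 5p copies, miR-465b-5p, stood at 3951, 4151 and 4487 CPM in left testicles 1 to 3 and 5213, 5336 and 5147 CPM in right testicles 1 to 3 (4714 ± 596). The second distal member, miR-547-3p, stood at 2629, 2238 and 2412 CPM in left testicles 1 to 3 and 6283, 2398 and 3484 CPM in right testicles 1 to 3 (3241 ± 1555), with right testicle 1 above the other libraries. The last 3 members of the top 12, miR-871-3p (8175 ± 9919 CPM), miR-465c-5p (8095 ± 5323 CPM) and miR-881-3p (3093 ± 3437 CPM), varied far more than these and are described with the uneven members. Of the members outside the top 12, miR-743a-3p averaged 2671 ± 441 CPM, miR-878-5p 1469 ± 139 CPM and miR-465a-5p 1057 ± 57.8 CPM. The lowest were miR-465d-5p with 6 counts over the 6 libraries, and miR-880-5p and miR-881-5p with 1 count each.

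**Figure D1:**
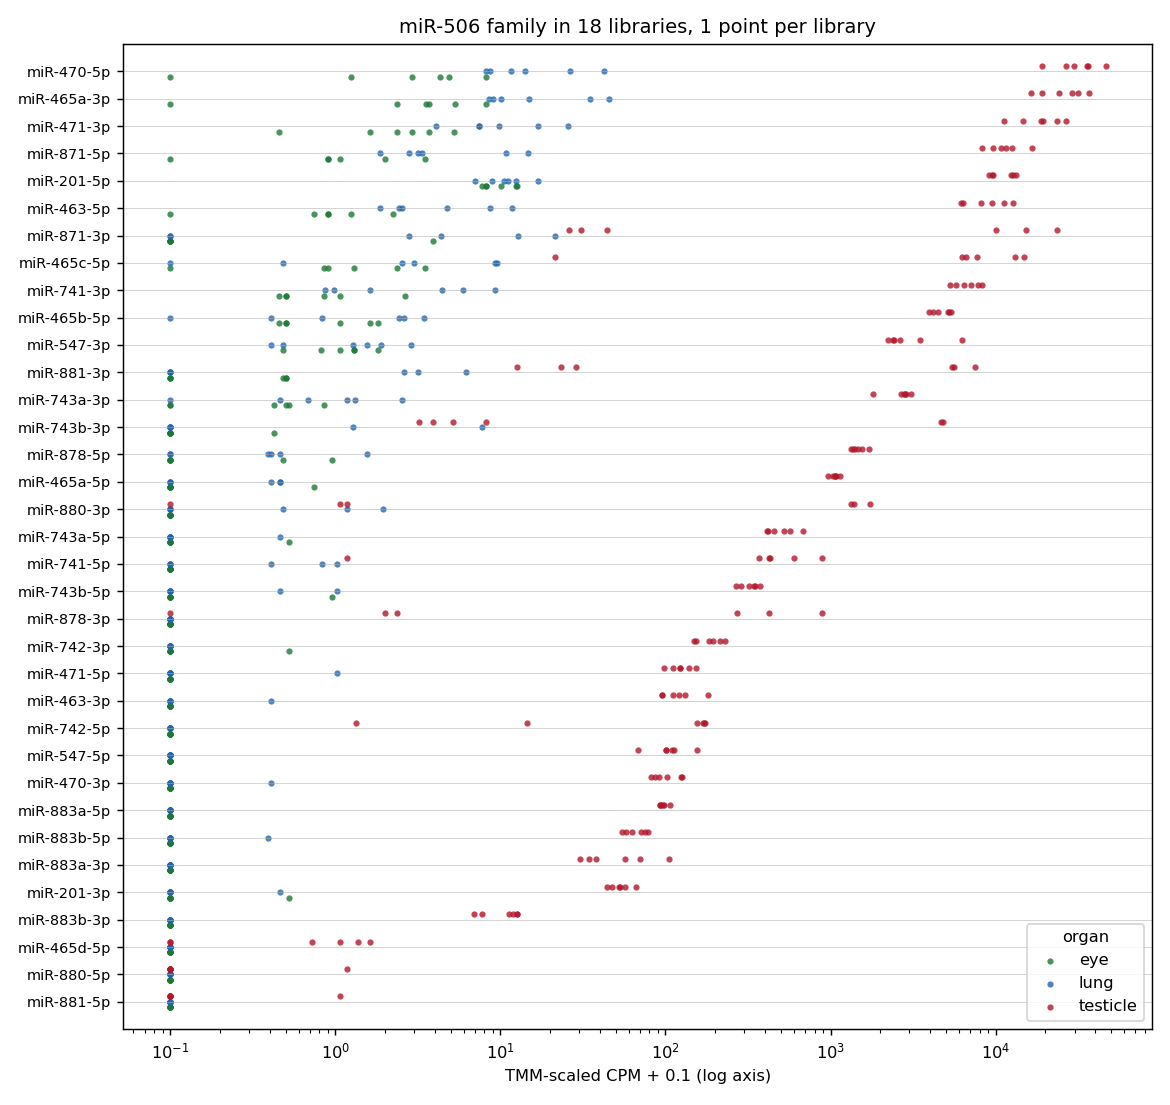
TMM-scaled CPM plus 0.1 on a log axis for each of the 35 signals, 1 point per library, 6 libraries an organ, ordered by mean testicle level. Testicle points lie to the right of eye and lung points for most members, and single testicle points of miR-871-3p, miR-881-3p, miR-743b-3p, miR-880-3p and others fall far to the left of their group. A point at the left edge is a count of 0.

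The first question of the design for these miRNAs is how the organs differ. In edgeR's quasi-likelihood test with Benjamini-Hochberg adjustment over the 642 miRNAs that passed the filter on low counts, 32 of 32 members tested were higher in the testicle than in the eye and 32 of 32 were higher than in the lung. Over all 642 tested miRNAs, 39.1% were called higher in the testicle than in the eye and 49.1% higher than in the lung, and 79.3% and 76.5% were called in either direction. The 3 members that did not pass the filter were miR-465d-5p, miR-880-5p and miR-881-5p. On the 6 eye libraries alone only 2 members passed such a filter, and on the 6 lung libraries alone 7, so most members entered the test through the testicle and the count is a description, not support. The median log2 fold change of the 32 members was 12.17 against the eye and 10.73 against the lung, beside -0.05 and 0.90 over all tested miRNAs. With the 12 members that had no count in any eye set to the limit that a count of 0 allows, the median against the eye was 11.40, and with the 7 that had none in any lung it was 10.31. The largest adjusted p among the 32 was 0.0042 against the eye and 0.00409 against the lung, both for miR-878-3p.

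Individual values give the size of these differences. For miR-470-5p the level was 32145 ± 9365 CPM in the testicle and 3.51 ± 2.88 CPM in the eye (log2 fold change 13.30, SE 0.75, adjusted p = 8.57e-11, edgeR). Without left eye 3, which held 13 of the 54 eye counts of this member, the log2 fold change was 14.10. Against the lung (18.4 ± 13.4 CPM) it was higher by a smaller margin (log2 fold change 10.76, SE 0.68, adjusted p = 4.03e-10, edgeR). The smallest difference from the eye among the top 12 was that of miR-201-5p, at 9.81 ± 2.23 CPM in the eye (log2 fold change 10.12, SE 0.27, adjusted p = 3.69e-14, edgeR), followed by miR-547-3p at 1.03 ± 0.456 CPM (log2 fold change 11.56, SE 0.47, adjusted p = 3.24e-12, edgeR). Those of the other members of the top 12 lay between 12.29 (miR-465b-5p) and 14.60 (miR-871-3p). Without right eye 2 the median of all tested miRNAs in lung against eye moved from -0.005 to 0.54, and the log2 fold change of miR-470-5p against the lung was 10.12.

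Every testicle library was above every eye library for 30 of the 32 members, beside 34.6% of all tested miRNAs, and above every lung library for 29, beside 38.6%. The exceptions were miR-880-3p and miR-878-3p against both organs and miR-743b-3p against the lung, whose lowest testicle libraries stood at 0, 0 and 3.11 CPM. Against the eye, 12 of the tested members had no count in any of the 6 libraries. For these, the pooled testicle level was set against the limit of 3 counts over the 6 eye libraries. It was higher by at least 44.3-fold (miR-883b-3p, the lowest) to at least 3399-fold (miR-880-3p, the highest). The latter pools testicle libraries with 0 to 2236 counts. Between these lay at least 1981-fold for miR-741-5p, at least 459-fold for miR-547-5p and at least 421-fold for miR-883a-5p. Against the lung the same limit gave at least 480-fold for miR-547-5p, at least 441-fold for miR-883a-5p and, as the lowest, at least 46.4-fold for miR-883b-3p. For miR-465a-5p, with 2 counts over all eyes, the ratio was 6926 (95% exact interval 1917 to 57200, counting error only). In all, 9 of the 35 signals had no count in any eye or lung library.

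The members did not vary alike between testicle libraries. Of the 29 members that reached 100 CPM in at least 1 testicle library, 8 ranged at least 50-fold between the lowest and the highest of the 6 libraries on the CPM + 1 scale, a limit chosen after the values were seen. Among the 235 other miRNAs that reached 100 CPM there, 3 did (1.28%): miR-297c-5p, miR-532-3p and miR-532-5p. Over both sets together it was 4.17%. The other 21 members ranged between 1.15-fold (miR-883a-5p) and 3.38-fold (miR-883a-3p), so no member lay between 3.38-fold and the 77.7-fold of miR-742-5p. With a limit of 20-fold the counts were 8 members and 5 others, and with 100-fold 7 and 2. Each of the 8 members was high in 2 to 5 libraries and low in the rest, and none of the 8 patterns was the same.

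The 3p arm of miR-871 had 41, 16109 and 32 counts in left testicles 1 to 3 and 26285, 23977 and 34 counts in right testicles 1 to 3. The 3p arm of miR-881 had 5051, 37 and 5822 counts in left testicles 1 to 3 and 14, 45 and 9808 counts in right testicles 1 to 3. The libraries high for one were low for the other, in all 6. In CPM, miR-871-3p was between 10030.2 and 23639 in its 3 high libraries and between 25.8 and 44.0 in its 3 low ones, and miR-881-3p between 5421 and 7447 and between 12.6 and 28.7. In the same libraries the other arm of the miR-871 hairpin, miR-871-5p, ranged only 2.00-fold. The libraries low for miR-871-3p, which are those high for miR-881-3p, held 952608, 1209864 and 1692817 counts in all, and the others 1529149, 1569527 and 1893132.

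Of the miR-465 copies, miR-465c-5p had 12152, 10607 and 22 counts in left testicles 1 to 3 and 6956, 23375 and 10204 counts in right testicles 1 to 3. It was high in 5 libraries and low in left testicle 3, where miR-465b-5p, which differs by a single base, stood at 4487 CPM, within its range over the other libraries (3951 to 5336). The 3p arm of miR-743b had 4362, 5 and 4955 counts in left testicles 1 to 3 and 9, 8 and 5 counts in right testicles 1 to 3, high in left testicles 1 and 3 alone. Its near-identical relative miR-743a-3p ranged from 1805 to 3057 CPM and stood at 3057 and 2801 CPM in those 2 libraries, within or at the end of that range. The 3p arm of miR-880 had 1, 2236 and 1 counts in left testicles 1 to 3 and 1936, 0 and 1741 counts in right testicles 1 to 3, high in 3 libraries. Its 5p arm had 1 count in all.

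The 5p arm of miR-741 had 1, 588 and 923 counts in left testicles 1 to 3 and 480, 661 and 794 counts in right testicles 1 to 3, low in left testicle 1 alone, while miR-741-3p ranged 1.56-fold over the 6 libraries. The 3p arm of miR-878 had 828, 0 and 280 counts in left testicles 1 to 3 and 468, 3 and 3 counts in right testicles 1 to 3, and miR-878-5p ranged 1.29-fold. The 5p arm of miR-742 had 160, 2 and 15 counts in left testicles 1 to 3 and 172, 272 and 222 counts in right testicles 1 to 3, and miR-742-3p ranged 1.53-fold. Of the 8 uneven members 5 were 3p arms and 3 were 5p arms, and the high libraries of each held both sides except for miR-743b-3p. The 8 together held 8.09% (left testicle 3) to 19.5% (right testicle 2) of the family's counts, and the family without them still held 9.16% to 13.0% of a testicle library. Leaving out single testicle libraries gave 7 or 8 uneven members. What gives these values was not tested.

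**Figure D2:**
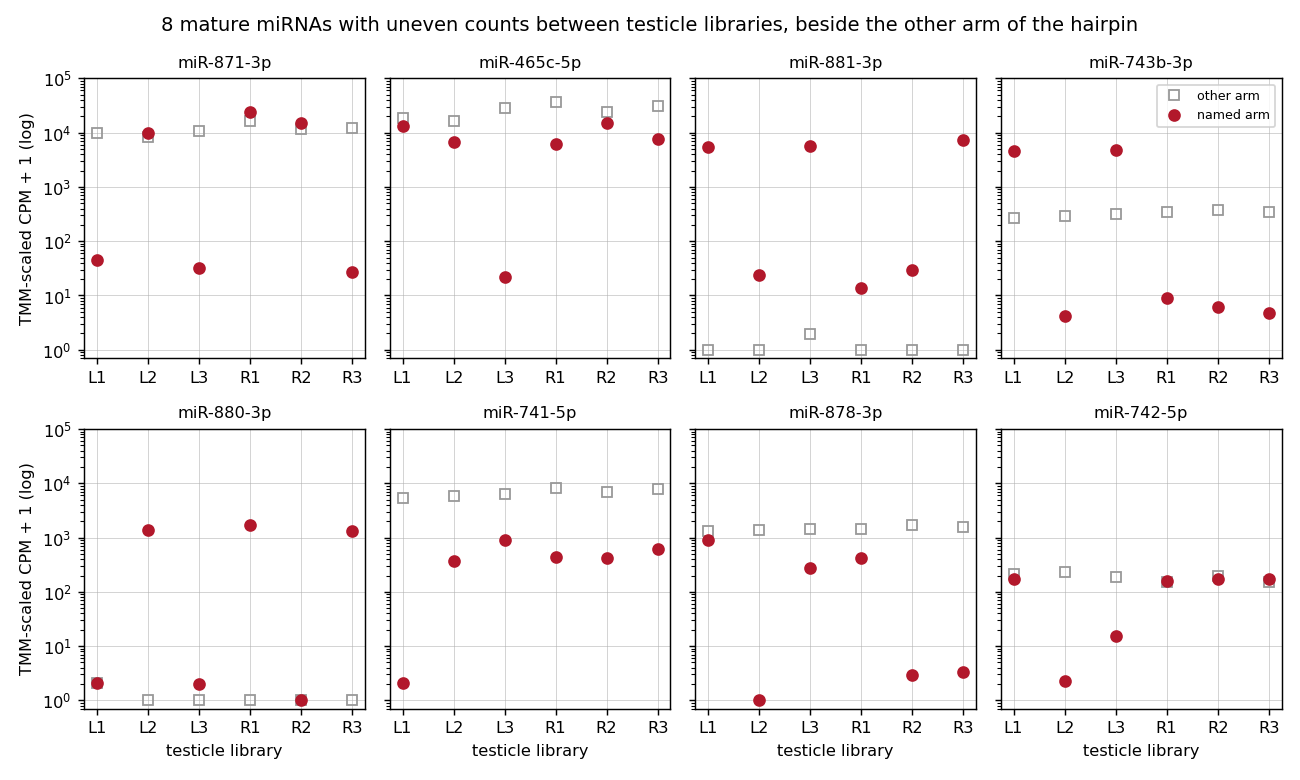
TMM-scaled CPM plus 1 on a log axis for the 8 uneven members (filled circles) and the other arm of the same hairpin (open squares) in the 6 testicle libraries, left (L1 to L3) and right (R1 to R3). The named arm drops in a different set of libraries in each panel, while the open squares stay level or, for miR-880 and miR-881, at or near a count of 0. For miR-465c the open squares are a row shared with miR-465a and miR-465b. The other arm of that hairpin alone cannot be read from them.

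For the 27 members with a mean of at least 100 CPM in the testicle, the coefficient of variation (SD over mean, 6 libraries) had a median of 0.26, beside 0.198 for the 205 other miRNAs at that level. With CPM from library totals in place of TMM scaling, the medians were 0.214 (24 members) and 0.208 (194 others). Without the uneven members the TMM-scaled median of the remaining 19 was 0.19. The steadiest were miR-465a-5p (0.0547), miR-878-5p (0.0946) and miR-743b-5p (0.124). The most variable were miR-743b-3p (1.54), miR-878-3p (1.34) and miR-871-3p (1.21). The hairpins of miR-878 and miR-743b thus each gave 1 of the 3 steadiest and 1 of the 3 most variable members. A fold change that rests on an uneven member moved with single libraries: against the eye, the log2 fold change of miR-871-3p (14.60) was 16.94 without right eye 3 and 11.36 without left testicle 2, and that of miR-881-3p (13.64) was 14.46 without left eye 2 and 10.40 without right testicle 3. Without left testicle 2, miR-880-3p was no longer called higher in the testicle than in the eye (adjusted p = 0.064, edgeR) or the lung (adjusted p = 0.101).

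The 2 arms of a hairpin differed widely in level, and which arm was higher differed between hairpins. The arm ratio is log2 of (5p CPM + 1) over (3p CPM + 1) in each testicle library, for 16 hairpin names with both arms listed and an arm of at least 50 CPM. In 5 names the 5p arm was higher in all 6 libraries, in 7 the 3p arm was never lower and in 4 the order differed between libraries. One of the 7 is miR-465a, whose 3p row is shared with miR-465b and miR-465c while its 5p row is its own. The arm order of that hairpin alone cannot be read from these counts. The highest ratios were 8.26 ± 0.675 for miR-470 (SD, n = 6), 7.67 ± 0.165 for miR-201 and 6.18 ± 0.712 for miR-463. The lowest were -8.33 ± 4.33 for miR-881, -7.20 ± 0.656 for miR-471 and -5.43 ± 5.60 for miR-880. The 5p arms of miR-881 and miR-880 had 1 count each over the 6 libraries, so the size of these 2 ratios is set by the added 1 CPM. That of miR-880 was 0 in left testicle 1 and right testicle 2. The ratio of miR-201 was the steadiest, between 7.49 and 7.94.

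Ratios of hairpins with an uneven arm split into separate levels. That of miR-871 was -0.52 to -0.28 in 3 libraries and 7.75 to 8.86 in the other 3. That of miR-743b was -4.13 and -3.89 in left testicles 1 and 3 and 5.24 to 6.18 elsewhere. For miR-742 (-1.76 ± 2.79) the arms were nearly equal in 4 libraries, and for miR-883a (0.92 ± 0.717), whose 2 arms were both steady, the 5p arm was higher in 5 of 6. Hairpins that share a seed did not share an arm order in every case: miR-743a favoured its 3p arm in all 6 libraries (-2.40 ± 0.477), while miR-743b did so in 2. Neighbours differed as well. In the proximal cluster, miR-471 (3p), miR-741 (3p) and miR-463 (5p) follow one another.

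**Figure D3:**
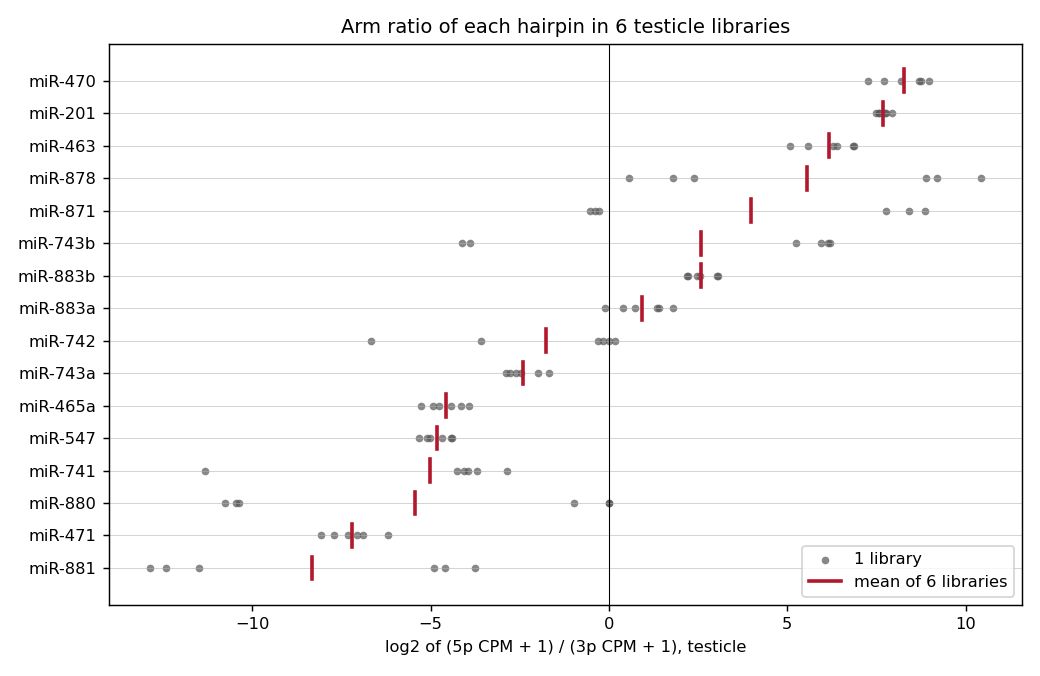
Log2 of (5p CPM + 1) over (3p CPM + 1) for 16 hairpin names in the 6 testicle libraries (points) with their mean (red line), ordered by the mean. Points right of 0 have more of the 5p arm, from miR-470 at 8.26 on top to miR-881 at -8.33 below. The points of miR-871, miR-743b, miR-878, miR-880 and miR-881 fall into separate clusters. The 3p arm of miR-465a is the sequence shared with miR-465b and miR-465c, and the 5p arms of miR-880 and miR-881 are at or near a count of 0.

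**Figure D4:**
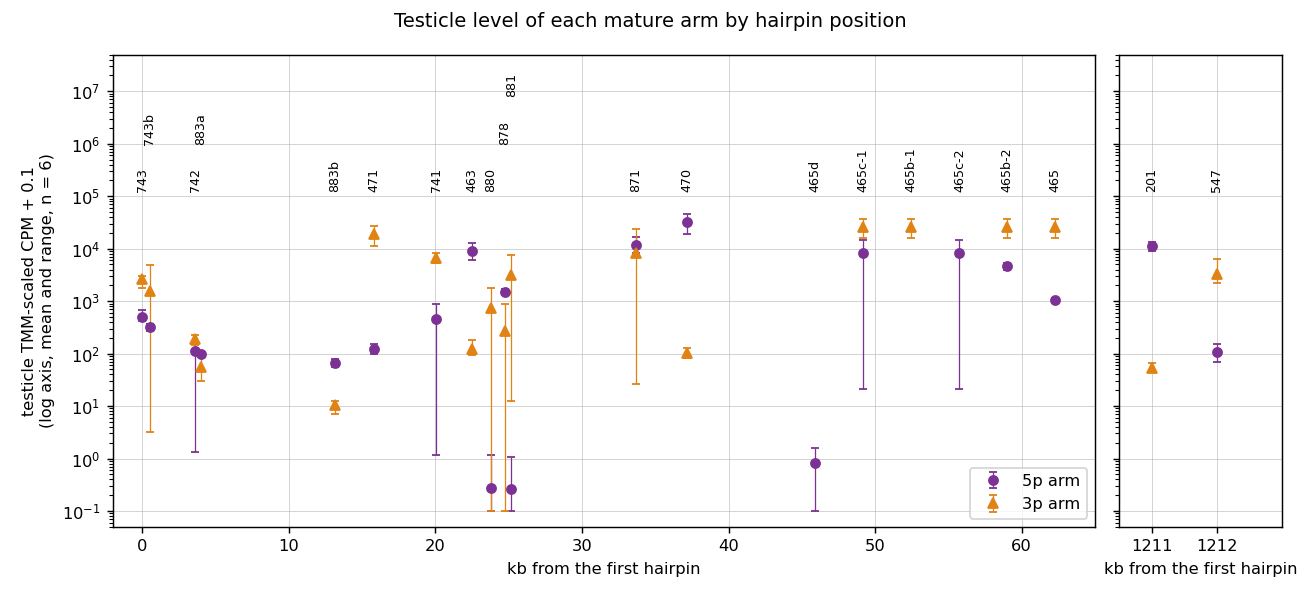
Mean testicle level of each mature arm on a log axis (TMM-scaled CPM plus 0.1, bars from the lowest to the highest of 6 libraries) against the distance of its hairpin from the first hairpin of the proximal cluster, in kb, with the distal cluster in the right panel. Circles are 5p arms and triangles 3p arms, and a mature sequence is drawn at each hairpin for which the reference lists it. Members of high and of low level lie in the same cluster.

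Eye and lung held few counts of the family, but their levels differed. In edgeR's quasi-likelihood test 6 of the 32 members were higher in the lung than in the eye and 0 were lower, beside 24.5% of all tested miRNAs called higher in the lung and 59.8% called in either direction. Most of the 32 passed the filter through the testicle: on lung libraries alone 7 did, and on eye libraries alone 2. The count of members called is therefore a description, and its share of the 32 is not read against that over all miRNAs. Every lung library was above every eye library for 2 members, miR-470-5p and miR-465a-3p, beside 17.3% of all tested. The 6 were miR-470-5p, miR-465a-3p, miR-471-3p, miR-871-5p, miR-463-5p and miR-741-3p. For miR-470-5p the counts were 0, 3 and 13 counts in left eyes 1 to 3 and 7, 12 and 19 counts in right eyes 1 to 3, and 72, 28 and 39 counts in left lungs 1 to 3 and 21, 39 and 138 counts in right lungs 1 to 3. This gave 3.51 ± 2.88 CPM in the eye and 18.4 ± 13.4 CPM in the lung (log2 fold change 2.53, SE 0.54, adjusted p = 0.000491, edgeR). For miR-465a-3p the levels were 3.77 ± 2.73 and 20.4 ± 15.9 CPM (log2 fold change 2.61, SE 0.54, adjusted p = 0.000385, edgeR). For miR-471-3p they were 2.61 ± 1.65 and 11.8 ± 8.05 CPM (log2 fold change 2.29, SE 0.42, adjusted p = 0.000135, edgeR). The log2 fold changes of miR-871-5p, miR-463-5p and miR-741-3p were 2.21, 2.53 and 1.96, with adjusted p of 0.00442, 0.000619 and 0.00791 (edgeR).

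The highest lung libraries for the family were left lung 1 (425 counts) and right lung 3 (695 counts), while the other 4 had 105 to 206. In the same libraries miR-202-5p, an abundant miRNA of gonadal somatic cells at 44376 CPM in the testicle, had 231 and 300 counts, against 23 to 118 in the other 4 lungs. In the eyes it had 9 to 56 counts, most in right eye 3, which also had the most family counts (121). The other miRNA of the gonadal somatic list, miR-202-3p, did not follow both lungs. It had 1 count in left lung 1 and 7 in right lung 3, against 0 to 7 in the other 4 lungs. The miRNAs of the miR-34/miR-449 list, which airway cells also make, did not follow these lungs alike: miR-449a-5p stood at 7.99% and 12.3% of its testicle level in left lung 1 and right lung 3 and at 13.1% in the other 4 together, and miR-34c-5p at 3.10%, 6.04% and 5.39%. Without these 2 lungs, the 6 members were still called higher in the lung, at log2 fold changes of 1.40 (miR-741-3p) to 2.22 (miR-470-5p), and miR-201-5p was called as well, where the median over all tested miRNAs was 0.22. The fold of miR-871-5p fell most, from a log2 value of 2.21 to 1.54. Without left eye 3, right eye 2 or right eye 3, single values rose, to as much as 3.36 for miR-470-5p without left eye 3. On the right libraries alone miR-871-5p (adjusted p = 0.0524) and miR-741-3p (adjusted p = 0.0595) were not called. The part of other cells or libraries in these values was not tested.

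One member stood apart in the eye. For miR-201-5p the counts were 28, 33 and 25 counts in left eyes 1 to 3 and 19, 31 and 19 counts in right eyes 1 to 3, and 46, 36 and 30 counts in left lungs 1 to 3 and 18, 29 and 40 counts in right lungs 1 to 3. Its levels overlapped between the organs, at 9.81 ± 2.23 CPM in the eye and 11 ± 3.34 CPM in the lung (log2 fold change 0.16, SE 0.20, adjusted p = 0.505, edgeR). It made up 35.7% of all family counts in the eye (155 of 434, 95% exact interval 31.2% to 40.4%, counting error only), 11.3% in the lung and 7.39% in the testicle. In left eye 1 it was 28 of 33 family counts, and in all 6 eyes it was the member with the most counts or shared that place. Relative to the testicle, the eye level of miR-201-5p was 0.0882% and the next highest of the 12 steady members with at least 1000 CPM was 0.0318% (miR-547-3p, its neighbour in the distal cluster), against a median of 0.0136%. In the lung these members lay between 0.0162% and 0.0992%, with miR-201-5p highest again. Scaling bears on the test: with the member rows left out of the TMM scaling, miR-201-5p was called higher in the lung (log2 fold change 0.89, adjusted p = 0.00139, edgeR), where the median over all miRNAs had moved to 0.54.

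Of the 1763 lung counts of the family, miR-465a-3p held 21.0%, miR-470-5p 19.1% and miR-471-3p 12.1%, and of the 1147685 testicle counts they held 17.0%, 20.7% and 12.3%. Of the other steady members, miR-465b-5p held 1.64% in the lung and 3.13% in the testicle, and miR-465a-5p 0.17% (3 counts) and 0.70%. The uneven member miR-871-3p had 35, 14 and 0 counts in left lungs 1 to 3 and 7, 0 and 70 counts in right lungs 1 to 3, with none in 2 lungs that had 6 and 9 counts of miR-871-5p. Likewise miR-743b-3p had 29 lung counts, of which 25 were in right lung 3. Several of these counts are low, and whether these members are uneven between lungs as they are between testicles was not tested.

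**Figure D5:**
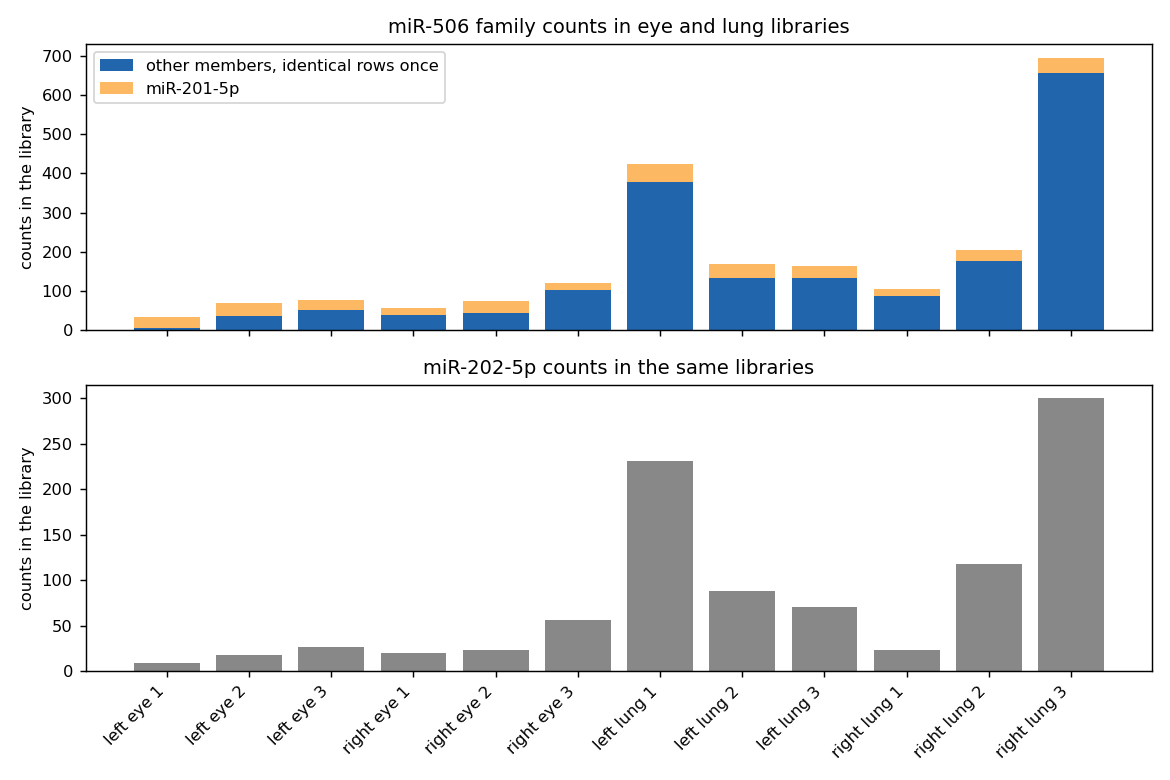
Counts of the family in each eye and lung library (upper panel), split into miR-201-5p and the other members, and counts of miR-202-5p in the same libraries (lower panel), on linear axes from 0. Left lung 1 and right lung 3 have the most counts in both panels, and miR-201-5p takes the larger part of left eye 1.

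Other miRNAs of the testis give a frame for these values. The miR-34b/c and miR-449 miRNAs act in spermatogenesis and in cells with motile cilia; of 9 listed, 8 were in the tables and 7 tested, with 7 higher in the testicle than in the eye and 6 higher than in the lung. The median log2 fold change of the 7 was 8.06 against the eye and 3.85 against the lung (7.56 against the eye with miR-449a-3p, without counts there, at its limit). The 4 most abundant of the list, miR-449a-5p (79682 ± 15023 CPM), miR-34b-3p (32265 ± 9633), miR-34c-3p (16990.4 ± 4460.2) and miR-34c-5p (10808 ± 1533), were at levels like those of the leading members in the testicle, but the list also summed to 9490.2 to 21735 CPM in the lung. Both miR-202 arms were higher in the testicle than in either organ. Of 15 listed miRNAs of undifferentiated germ cells, from the miR-290 and miR-302 clusters, 14 were in the tables and 6 tested. All 6 were higher in the testicle than in either organ, beside 39.1% (eye) and 49.1% (lung) of all tested miRNAs. The list summed to 172 to 239 CPM in the testicle, at most 1.61 CPM in an eye library and at most 3.37 CPM in a lung library. These 6 thus entered the test through the testicle, and their count is a description, not support.

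Other miRNAs of the X chromosome did not share the pattern. Of 88 further rows placed on X alone, 43 were tested. In edgeR, 19 were higher and 15 lower in the testicle than in the eye, with a median log2 fold change of 0.02. Against the lung, 8 were higher and 28 lower, with a median of -1.15. Over all 642 tested miRNAs, 39.1% were called higher than in the eye and 49.1% higher than in the lung, with medians of -0.05 and 0.90. Only 4 of the 43 were called higher in the testicle than in both organs, miR-672-5p, miR-672-3p, miR-362-3p and miR-501-3p. The largest of these, miR-672-5p, was higher by 3.08 and 1.57 on the log2 scale. These comparisons share their testicle libraries, so the values are set side by side only.

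The series also compares left with right organs. In the testicle, 31 members were tested on the 6 libraries and 0 were called, with a lowest adjusted p of 0.574 (edgeR), beside 0 of 464 miRNAs over all. At an unadjusted p under 0.05 there were 2 of 31 members, beside 7.76% of all tested, and DESeq2 gave 0 members called and 4 at that unadjusted level. For miR-742-3p the left libraries averaged 192 ± 25.0 CPM (SD, n = 3) and the right 133 ± 17.7 CPM (log2 fold change right over left -0.53, edgeR adjusted p = 0.574). For miR-463-5p they averaged 6307 ± 861 and 9016 ± 1565 CPM (0.52, edgeR adjusted p = 0.574). The next lowest p was that of miR-883a-3p, with sides that overlapped (-1.02, edgeR adjusted p = 0.574). These levels are scaled on the testicle libraries alone. The sides did not overlap for 7 of 31 members, beside 15.9% of all tested. Without left testicle 2, miR-743b-3p was called (log2 fold change -9.90, adjusted p = 0.000325, edgeR), the member with 4362 and 4955 counts in left testicles 1 and 3 and at most 9 in the other 4, which did not pass the filter on all 6 libraries.

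In the lung 7 members were tested between sides and in the eye 2 (miR-470-5p and miR-201-5p), and 0 were called in either organ, with lowest adjusted p values of 0.908 and 0.982 (edgeR). At an unadjusted p under 0.05 there were 0 members in both, beside 0.233% of all tested in the lung and 3.7% in the eye. The log2 fold changes of right over left lay between -0.23 and 0.88 in the lung. Sides overlapped for all of these members, while they did not overlap for 5.81% of all tested miRNAs in the lung and 9.45% in the eye.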

How the data were processed

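The deposited files hold raw counts, 1 table for each library with a row per mature miRNA, as their headers and whole-number values show. Total RNA came from a column-based kit and libraries followed the BGI-500 procedure, per the labels' protocols. The build is GRCm38.p6, per the submitters' processing notes. For the aligner, the counter and the handling of multi-mapping reads, nothing is given in the sources used here.

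Counts of all 1431 rows were fitted with edgeR 4.0.16 (R 4.3.3): TMM scaling, the filterByExpr filter by group (642 kept, 789 left out), glmQLFTest and Benjamini-Hochberg adjusted p under 0.05. Organs were compared as means of both sides over 18 libraries, and sides on the 6 libraries of an organ. DESeq2 1.42.0 was an alternative. Fold changes on the log2 scale are testicle over eye, testicle over lung, lung over eye and right over left, in whatever order a comparison is named. Their SE is the log2 fold change divided by the square root of the test's F. Limits for a count of 0 use library totals. The procedure was tested on simulated data. Use of molecular identifiers is not stated and reads may repeat a molecule, so limits and intervals cover counting error only.

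The text names the 12 signals highest in the testicle, members called between eye and lung or between sides (else the 3 lowest p), the 3 extremes of arm ratio and of variation, and members that failed the filter. The uneven members, the miRNAs beside them and the members given as limits were chosen after their values were seen. Members, lists and tests were chosen with earlier results of these data known. The lists named here are retina and brain, lung epithelium, gonadal somatic, miR-34/miR-449, undifferentiated germ cell and other X-linked miRNAs. Left and right libraries share replicate numbers. The labels do not say whether a number marks a shared mouse, so the fits have no replicate block.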

Additional observations from a re-analysis of the deposited data

Results flagged for a closer look

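In sets of 6 libraries of 1 organ, a library was singled out where its gap to the nearest other library exceeded 0.625 of the whole range (Dixon's 95% critical value for 6). Of 53 sets checked, 3 held such a library, and chance gives about 1 in 20. In the eye, miR-741-3p stood at 2.56 CPM (6 counts) in right eye 3, against 0.359 to 0.972 CPM in the other eyes. In the testicle, miR-547-3p stood at 6283 CPM (6986 counts) in right testicle 1, against 2238 to 3484 CPM in the others. The arm ratio of miR-741 was -11.33 on the log2 scale in left testicle 1, against -4.26 to -2.85 in the others, where miR-741-5p had 1 count. None of these was followed up, and their causes were not tested.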

How the results depend on the processing

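No called result changed direction under any alternative run. For members tested with all libraries, 984 values under an alternative stayed on their side of the threshold in testicle against eye. The numbers were 983 in testicle against lung and 952 in lung against eye. Between sides they were 432 in the testicle, 98 in the lung and 28 in the eye. In all, 5 values lost a call and 31 gained one. Arm ratios have no call. Their means under an alternative stayed within 1 SD, a wide limit for uneven names (5.60 for miR-880). On right libraries only, miR-871-5p (log2 fold change 1.69) and miR-741-3p (2.03) were not called between eye and lung, nor miR-743b-3p (1.13) between lung and testicle. Without left testicle 2, miR-880-3p lost its calls against the eye (9.26) and the lung (7.01). The 31 gains were all in eye against lung, most often miR-743a-3p (14 settings, adjusted p = 0.0687 in edgeR with all libraries), miR-201-5p (6) and miR-465b-5p (3). Members that failed the filter with all libraries are outside these counts. Of them, miR-465d-5p was called without the filter, against the eye (adjusted p = 0.0108, edgeR) and the lung (adjusted p = 0.00943, edgeR). On left or right libraries only, some uneven members did not pass the filter. Counts of members called kept within 1.5 times of the values in the report, with 2 exceptions. Without the filter on low counts, 12 members instead of 6 were called between eye and lung. Without left testicle 2, 1 member instead of 0 was called between left and right testicle. The family's mean share of testicle counts was 17.3% with every name counted and 15.3% in TMM-scaled CPM, instead of 12.9%.

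With 1 library left out at a time, 31 to 32 members were called in eye against testicle and in lung against testicle, 6 to 9 in eye against lung, 0 to 1 in left against right testicle and 0 in left against right eye and lung. Uneven members numbered 7 to 8, and the median coefficient of variation was 0.216 to 0.292. With a replicate block the counts were 32, 32 and 6 between organs and 0 between sides, so the block changed no call. Correlations of same-numbered libraries over all group pairs ran from -0.42 to 0.396, over 0.1 in 8 of 45 pairs. For left with right testicle they were 0.238, 0.024 and 0.121, and differently numbered pairs reached at most 0.084. Left with right lung gave 0.161, -0.023 and 0.396, beside at most 0.071. Left with right eye gave -0.114, -0.42 and -0.142, beside at most 0.326. Whether same-numbered libraries share a mouse was not tested.

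The median of all tested miRNAs in lung against eye moved from -0.005 to 0.51 with left testicle 1 as the TMM reference, and 9 members were then called. Leaving out left lung 1 with right lung 3, the limits of 20-fold and 100-fold for unevenness, library totals for unevenness and its single-library exclusions were chosen after seeing the data. In an eye or lung library most members rest on fewer than 10 counts, although these libraries are deeper than those of the testicle.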
